A study of Mus musculus with 2 samples.

Results

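The 9 genes described here, Hmox1, Nqo1, Gclc, Gclm, Txnrd1, Slc7a11, Srxn1, Osgin1 and Gsr, encode antioxidant and detoxifying proteins that are textbook targets of the transcription factor Nrf2. They were chosen by name, and all 9 were found among the 21755 protein-coding genes annotated on chromosomes 1 to 19 and X. Chromatin accessibility was measured by single-cell ATAC-seq, in which a transposase cuts open DNA and the fragments of each cell share a barcode. Hematopoietic stem cells (HSCs) from C57BL/6 bone marrow were purified as cells that were Sca-1+, CD150+ and c-kit+ and that were CD34-, Flt3-, CD48-, Lin- and, as labelled, IL-7- (the antibody in the study's methods is against the receptor, IL-7Rα), and no gene was altered and no agent was given. Young HSCs came from 10-week-old mice and aged HSCs from 20-month-old mice, with 1 library for each age. The study's methods name female mice, and how many mice entered each library is not given in the sources used here. With 1 library per age there is no replicate check, no test between ages was possible, and age cannot be told apart from the library.

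Nrf2, encoded by Nfe2l2, belongs to the cap'n'collar (CNC) family of basic leucine zipper factors and binds DNA as a dimer with a small Maf protein. In unstressed cells Keap1 hands Nrf2 to the proteasome, and electrophiles or oxidants release it, so that it reaches antioxidant response elements (AREs) near its targets. Bach1 binds the same elements as a repressor until heme removes it, and HSCs are known for their sensitivity to reactive oxygen species.

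From the young library 4887 cells were kept and from the aged library 3405, with 3000 to 20000 in-peak fragments per cell in the authors' table. Another 12 young and 118 aged called cells lay above that range and 129 and 171 lay below it. The libraries held 53786133 and 48333115 unique fragments, and 26 barcodes were kept in both. Kept cells had 34611605 young and 26127271 aged fragments in the 165530 combined peaks, and levels are given as fragments per 1000000 of these (FPM). The 10 HSC markers summed to 225 FPM in young and 227 FPM in aged HSCs at their promoters, and 9 of them reached 100 fragments over both libraries. The 7 macrophage markers, a cell type with high Hmox1, summed to 7.83 and 7.27 FPM, and Spic and Timd4, which define red pulp and other tissue macrophages, held 6 young and 6 aged and 6 young and 9 aged fragments. The 8 erythroid markers summed to 94.5 and 86.6 FPM, of which Tfrc and Epor held the largest levels, and the 7 T cell markers to 18.5 and 17.9 FPM. The 8 B cell markers summed to 66.0 and 64.0 FPM, the 10 granulocyte and monocyte markers to 36.4 and 36.3 FPM, and the 8 megakaryocyte markers to 145 and 146 FPM. Near-equal sums held single markers past a log2 ratio of 0.3 in the aged library. Slamf1 (1 of 9 tested HSC markers), Elane (1 of 5 granulocyte and monocyte), Bcl11b (1 of 2 T cell), Itgb3 and Selp (2 of 7 megakaryocyte) were higher. Mpo (1 of 5 granulocyte and monocyte), Itga2b (1 of 7 megakaryocyte) and 1 of the 6 tested B cell markers were lower. None of the 4 erythroid and 2 macrophage markers tested was past it. Over all promoters 9.03% were higher and 3.01% lower, so these few markers are no result about cell types. No marker was at 0 in the lists named here, and the part of other cells in the values below was not tested.

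The sequences that Nrf2 and its relatives can read at these loci are shown first, since the accessibility of those sites is what the comparison turns on. The motif searched was TGANTCAGC on both strands, which is the CNC and small Maf consensus and which contains the AP-1 letters TGANTCA. Among the 177 peaks within the 9 genes and 50 kb on either side, 9 peaks (5.08%) held a match, against 4.29% of all combined peaks. In the 49-base windows below, read from the plus strand of GRCm38 (mm10), the match is in capitals and distances are from the annotated 5′ end of the gene to the centre of the window.
Hmox1, 9.64 kb upstream, chr8:75083957-75084005: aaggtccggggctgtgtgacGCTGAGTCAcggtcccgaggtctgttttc
Hmox1, 3.87 kb upstream, chr8:75089730-75089778: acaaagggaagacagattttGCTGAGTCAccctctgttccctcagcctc
Gclc, 3.79 kb upstream, chr9:77750725-77750773: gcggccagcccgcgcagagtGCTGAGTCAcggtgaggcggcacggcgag
Gclm, 36.5 kb upstream, chr3:122209020-122209068: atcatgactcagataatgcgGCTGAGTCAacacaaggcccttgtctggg
Srxn1, promoter, chr2:152105459-152105507: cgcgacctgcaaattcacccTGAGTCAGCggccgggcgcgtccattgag
Osgin1, promoter, chr8:119437028-119437076: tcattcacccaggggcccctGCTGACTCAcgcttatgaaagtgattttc
Gsr, intron, 7.88 kb into the gene, chr8:33660376-33660424: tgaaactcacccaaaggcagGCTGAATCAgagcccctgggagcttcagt

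The upstream Hmox1 peak at 9.65 kb held 3 such matches, of which the middle one is printed, and it is one of the 2 classical upstream enhancers of this gene. The other 2 of the 9 peaks lay 50.1 kb downstream of the Gclm 5′ end in an intron of Bcar3, and 34.4 kb downstream of the Srxn1 5′ end. No peak of the Nqo1, Txnrd1 or Slc7a11 loci held the 9 letters, which says only that these letters are absent from those windows.

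All 9 peaks with a CNC match were open at both ages and most kept nearly the same level. Hmox1 encodes heme oxygenase 1, which opens the heme ring and releases carbon monoxide, iron and biliverdin. Its enhancer at 9.65 kb upstream (chr8:75083721-75084220) held 620 fragments in young and 487 in aged HSCs, or 17.9 and 18.6 FPM, a log2 ratio (aged over young) of 0.06 with a 95% interval of -0.12 to 0.23. Its enhancer at 3.85 kb upstream (chr8:75089501-75090050) held 517 and 386 fragments, or 14.9 and 14.8 FPM, a log2 ratio of -0.01 (-0.21 to 0.18). Both intervals, which like all intervals and limits here cover counting error only, include 0, so a difference at the Hmox1 enhancers was not detectable at this depth.

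Gclc encodes the catalytic subunit of glutamate-cysteine ligase, the first and rate-limiting enzyme of glutathione synthesis. The peak 3.80 kb upstream of it (chr9:77750281-77751190) was more open than its promoter, with 1538 young and 1137 aged fragments, or 44.4 and 43.5 FPM and a log2 ratio of -0.03 (-0.14 to 0.08). It was also the most covered peak of this locus outside the promoter window. The peak at the Srxn1 promoter held 48.3 and 54.0 FPM, with a log2 ratio of 0.16 (0.06 to 0.26), and that at the Osgin1 promoter 26.8 and 25.7 FPM, with -0.06 (-0.20 to 0.09).

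The peak with the match in an intron of Gsr (chr8:33660351-33661000, 8.15 kb from the 5′ end) held 461 and 412 fragments, or 13.3 and 15.8 FPM, a log2 ratio of 0.24 (0.05 to 0.44). At Gclm, the peak 36.5 kb upstream (chr3:122208411-122209700, in an intron of the pseudogene Gm43158) held 239 and 278 fragments, or 6.91 and 10.6 FPM. Its log2 ratio of 0.62 (0.37 to 0.88) made it the 1 peak of the 9 past 0.6 in either direction, against 9.27% higher and 3.77% lower of all combined peaks, so 1 of 9 is no result about these peaks. The downstream peaks at Gclm and Srxn1 had log2 ratios of -0.22 (-0.49 to 0.03) and -0.10 (-0.41 to 0.20), and the median over the 9 peaks was -0.01.

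**Figure D1:**
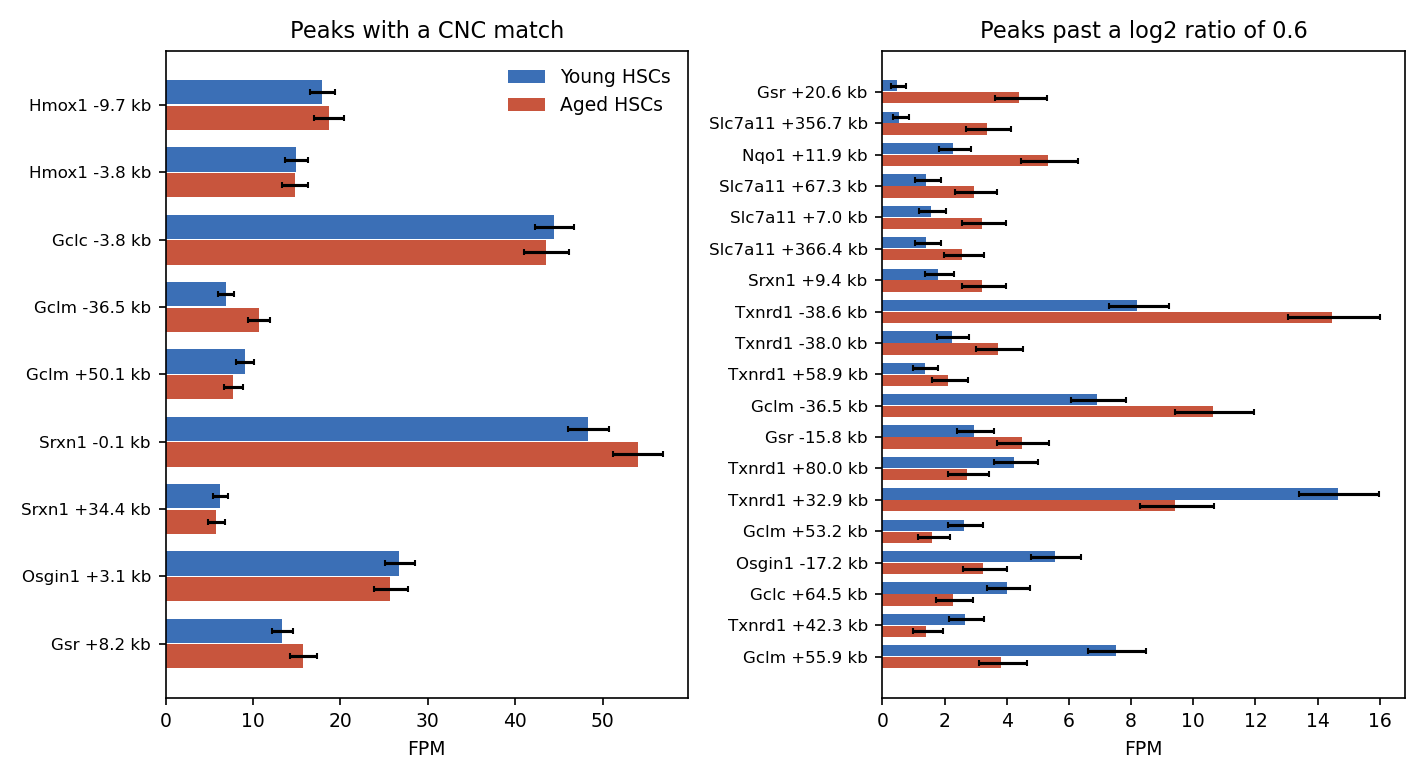
Levels of peaks at the 9 loci in young (blue) and aged (red) HSCs, in FPM with exact Poisson 95% intervals, 1 library per age. Left, the 9 peaks with a CNC match, where the Gclm peak 36.5 kb upstream is the one past a log2 ratio of 0.6; right, the 19 peaks past that ratio, ordered from the highest to the lowest, led by the Gsr intron at 0.462 and 4.40 FPM. Labels give the distance from the annotated 5′ end.

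Promoters of all 9 genes were open at both ages, and at the most open start none of them differed by a log2 ratio of 0.3. The main window was the annotated 5′ end of the gene with 1 kb on either side. At 7 genes it held the open region or, at Gsr, part of it (1003 and 797 fragments, against 1354 and 1071 at the most open start). At Txnrd1 it did not, since the open start lay 25308 bp further into the gene, and the window held 9 young and 16 aged fragments, with a log2 ratio of 1.17 (-0.03 to 2.60). At Osgin1 the open start lay 3025 bp further in, and the window held 34 and 24 fragments, with -0.08 (-0.91 to 0.70). Neither reached the minimum of 100 fragments over both libraries, and for every gene the annotated protein-coding start with the most fragments is therefore given as well (0 to 8 bp away at 5 genes, 524 bp at Gclm and 715 bp at Gsr). At the 5′ ends 0 of 7 genes were higher and 0 were lower past 0.3, against 9.03% and 3.01% of 15024 promoters, although Gsr passed it in a narrower window given below. At the most open starts 0 of 9 were higher and 0 were lower, against 8.56% and 2.73% of 15565.

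The glutathione group comprised Gclc, Gclm, Slc7a11 and Gsr. The Gclc promoter held 1058 fragments in young and 688 in aged HSCs, or 30.6 FPM (28.8 to 32.5) and 26.3 FPM (24.4 to 28.4). The log2 ratio was -0.21 (-0.36 to -0.08), the lowest of the 9. Gclm, the modifier subunit of the same ligase, held 2022 and 1383 fragments at its most open start, or 58.4 and 52.9 FPM, with a log2 ratio of -0.14 (-0.24 to -0.04), and -0.16 (-0.26 to -0.06) at its 5′ end. Both intervals lay below 0, as did the median over all open starts at -0.05, with 5th and 95th percentiles of -0.24 and 0.44. Among open starts with 1000 to 5000 fragments over both libraries, as at these 2 genes, the median was -0.07, the 5th and 95th percentiles were -0.22 and 0.16, and 23.4% were above 0. Ratios below 0 were thus common at this coverage, with Gclc close to the 5th percentile. Within 5 kb of the 5′ end Gclc had -0.07 (-0.15 to 0.01) and Gclm -0.03 (-0.11 to 0.05), and both intervals included 0. The Gclc window held 3067 young and 2200 aged fragments and also takes in the open upstream peak described above. The bin of 500 bp centred 3.78 kb upstream alone held 1343 and 972. The Gclm window takes in a bin of 500 bp centred 1.81 kb upstream, with 399 and 374 fragments and a log2 ratio of 0.31 (0.10 to 0.52). Neither window is thus a measure of the promoter alone.

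Slc7a11, the cystine importer that supplies cysteine, held 903 and 716 fragments at its promoter, or 26.1 and 27.4 FPM, with a log2 ratio of 0.07 (-0.07 to 0.21). Gsr, which regenerates reduced glutathione with NADPH, held 1354 and 1071 fragments at its most open start, or 39.1 and 41.0 FPM, with 0.07 (-0.05 to 0.18). In these windows a difference at either was not detectable at this depth. Within 500 bp of its 5′ end, on the upstream side of the open start, Gsr held 307 and 309 fragments, with 0.42 (0.18 to 0.65), past 0.3. The bin of 500 bp centred 0.272 kb upstream of that end, which overlaps this window, held 197 and 206 fragments, with 0.47 (0.18 to 0.76).

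The thioredoxin group comprised Txnrd1 and Srxn1. Txnrd1, cytosolic thioredoxin reductase, held 2009 and 1546 fragments at its most open start, or 58.0 and 59.2 FPM, with a log2 ratio of 0.03 (-0.07 to 0.12). Srxn1, sulfiredoxin, which repairs overoxidized peroxiredoxins, held 1696 and 1430 fragments, or 49.0 FPM (46.7 to 51.4) and 54.7 FPM (51.9 to 57.6). Its log2 ratio of 0.16 (0.06 to 0.26) was the highest of the 9 open starts and the only one with an interval above 0, and it lay at the 95th percentile of open starts with 1000 to 5000 fragments.

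Among the remaining 3 genes, Hmox1 held 800 and 627 fragments, or 23.1 and 24.0 FPM, with a log2 ratio of 0.05 (-0.10 to 0.21). Nqo1, the quinone reductase most used as a readout of Nrf2, held 1113 and 848 fragments, or 32.2 and 32.5 FPM, with 0.01 (-0.12 to 0.14). Osgin1, an oxidative stress-induced growth inhibitor, held 1068 and 755 fragments at its most open start, or 30.9 and 28.9 FPM, with -0.09 (-0.23 to 0.04). All 3 intervals included 0.

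**Figure D2:**
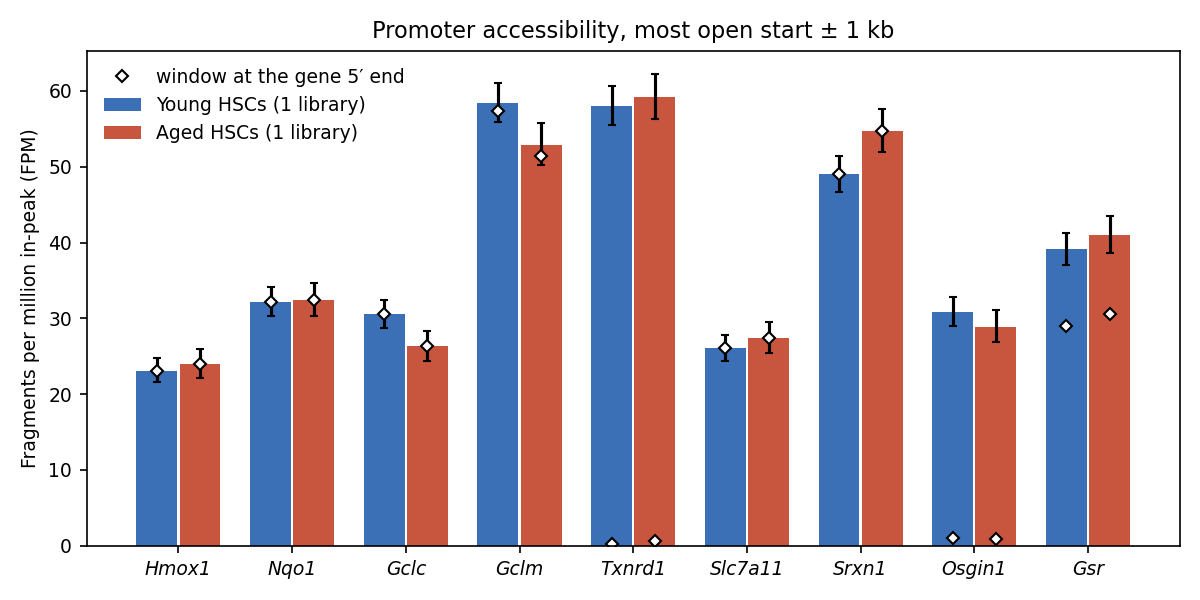
Promoter accessibility of the 9 genes in FPM, counted within 1 kb on either side of the most open annotated start, in young (blue) and aged (red) HSCs, 1 library each, with exact Poisson 95% intervals. Diamonds give the same count at the annotated 5′ end, which is near 0 for Txnrd1 and Osgin1.

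In order of level in young HSCs the open starts ran from Hmox1 at 23.1 FPM through Slc7a11, Gclc, Osgin1, Nqo1, Gsr and Srxn1 to Txnrd1 at 58.0 and Gclm at 58.4 FPM. The intervals of Hmox1 and Slc7a11 overlapped, as did those of Gclc, Osgin1 and Nqo1, and those of Txnrd1 and Gclm. In aged HSCs Txnrd1 and Srxn1 came first and second at 59.2 and 54.7 FPM, followed by Gclm at 52.9 FPM, and the interval of Srxn1 overlapped those of both. Summed over the 9 open starts, the level was 347 FPM at both ages.

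The shapes of the promoters were alike at both ages. In bins of 50 bp, the highest bin lay 75 bp upstream of the start for Hmox1, Gclc and Srxn1, 25 bp upstream for Slc7a11 and Osgin1, 175 bp upstream for Txnrd1 and 225 bp downstream for Gsr in both libraries. At Nqo1 and Gclm the highest bin differed between ages, from 375 bp upstream to 125 bp downstream and from 475 to 675 bp upstream, among several bins of similar height. Fragments shorter than 150 bp made up 64.1% of young and 60.0% of aged fragments at Nqo1 and 79.5% and 78.0% at the Gclm 5′ end, against medians of 64.7% and 60.7% over all promoters.

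**Figure D3:**
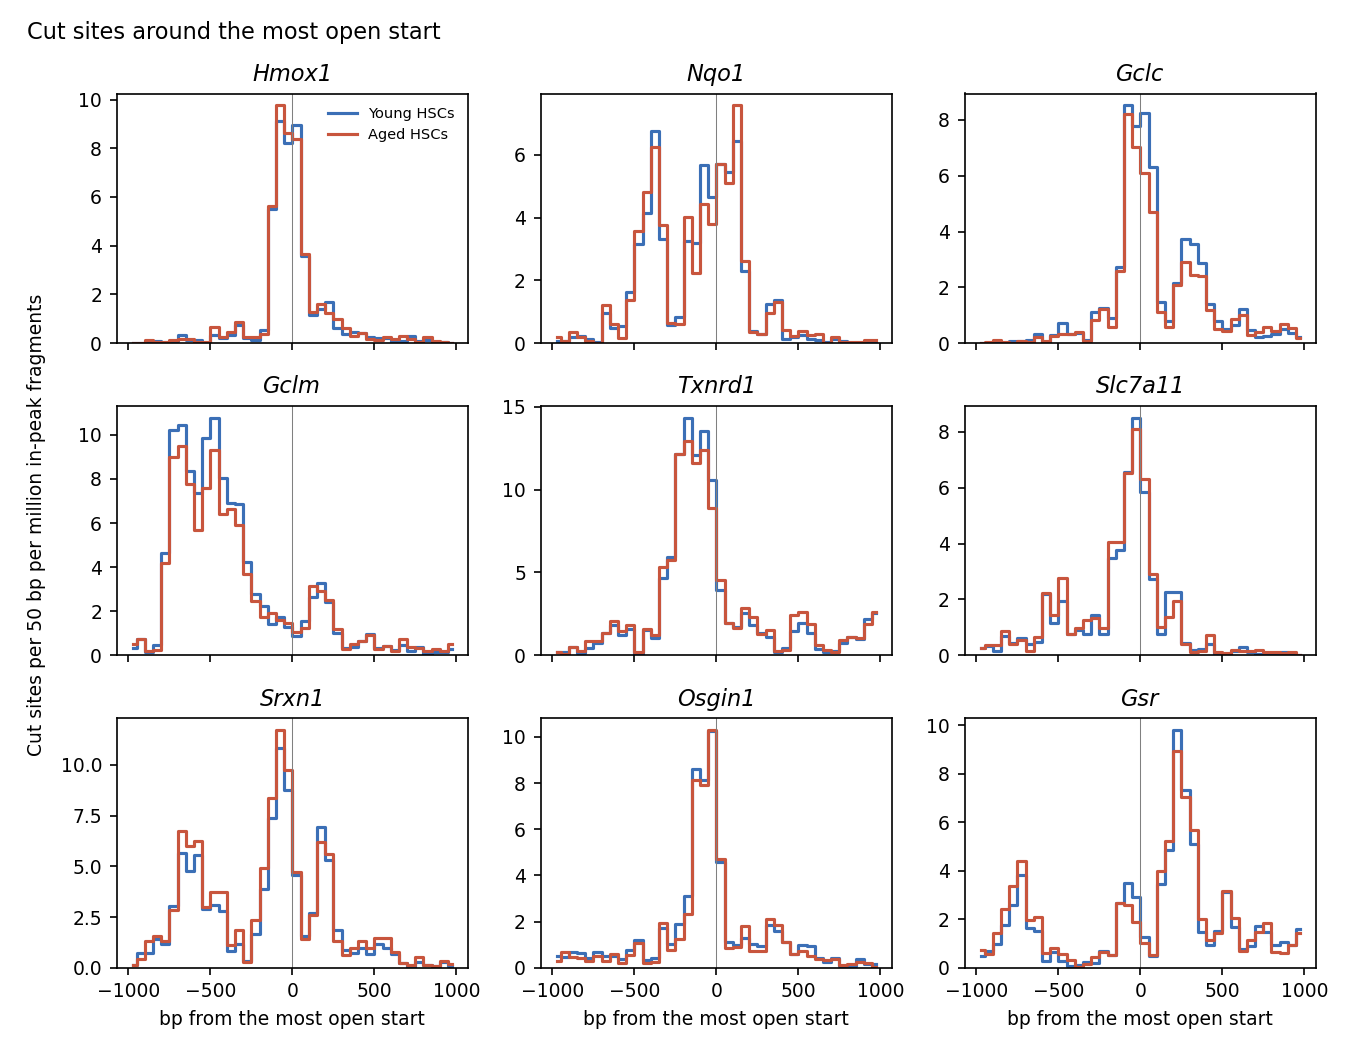
Cut sites in bins of 50 bp across 1 kb on either side of the most open start, per 1000000 in-peak fragments, in young (blue) and aged (red) HSCs; positive distances run into the gene. Both ages have the same open regions in each of the 9 panels, and Gclc and Gclm are lower in aged HSCs over most of their open region.

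A second motif, TGACNNNGC, the core of the ARE, was common at these promoters and in the genome alike. It differs from TGANTCAGC in requiring C after TGA and leaving the next bases free, and it was found within 1 kb of the most open start at Gclm, Slc7a11 and Gsr (3 matches each), Txnrd1 (2 matches) and Srxn1 (1 match), and in 52.4% of all promoters of that length. TGANTCAGC was found at Srxn1, 41 bp upstream, and at Osgin1, 97 bp upstream of the most open start, and in 6.16% of all promoters.

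Few fragments came from any 1 promoter in a cell, so levels over the library are a sum over many cells, and fewer cells with the promoter open cannot be told apart from less accessibility per cell. Shares of cells depend on depth, so each cell was thinned to the same 3000 in-peak fragments, which does not separate those readings. For this, 4787 young and 3271 aged cells were deep enough. The share of these cells with a fragment at the most open start ran from 7.0% (Hmox1) to 15.4% (Txnrd1) in young and from 6.70% (Hmox1) to 16.7% (Txnrd1) in aged cells. At Gclc it was 8.84% (exact binomial 95% interval 8.05 to 9.68) in young and 7.55% (6.67 to 8.51) in aged cells. At the T cell gene Cd3e, whose promoter these cells are not known to use, it was 0.272% and 0.214%. Without thinning, the shares at Gclc were 19.1% and 18.0%.

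A fragment at any of the 9 promoters was seen in 64.0% (62.6 to 65.4) of young and 65.0% (63.3 to 66.6) of aged thinned cells, and in 88.0% and 88.3% of cells before thinning. The mean number of the 9 promoters with a fragment was 0.966 in young and 0.973 in aged thinned cells. At 4 or more promoters the share was 1.11% and 1.04%.

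Ratios within bands of depth kept their sign at the most open starts of Gclc, Gclm and Gsr and changed it at the other 6 genes. The bands are cells of the same libraries, given without intervals, so equal signs are no replicate. The sign at Gsr in the middle band and the change at Hmox1 rest on values near 0. Among cells of 3000 to 6000, 6000 to 10000 and 10000 to 20000 in-peak fragments, Gclc had log2 ratios of -0.21, -0.18 and -0.23, and Gclm at its most open start -0.27, -0.14 and -0.11. Srxn1 had -0.04 in the lowest band, with 199 young and 143 aged fragments, and 0.23 and 0.15 in the others. Nqo1 had 0.31 in the lowest band, with 120 young and 110 aged fragments, and 0.03 and -0.03 in the others. From the lowest to the highest band, Slc7a11 had 0.08, -0.04 and 0.21, Osgin1 -0.17, 0.08 and -0.20, and Txnrd1 -0.12, 0.02 and 0.09. Hmox1 lay within 0.005 of 0 in the lower 2 bands and had 0.18 in the highest, and Gsr had 0.10, 0.01 and 0.11.

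Across gene bodies, 2 of the 9 genes were higher past 0.3 and 0 were lower, against 9.11% and 3.12% of 17691 bodies. The Nqo1 body held 698 young and 668 aged fragments, or 20.2 and 25.6 FPM, a log2 ratio of 0.34 (0.19 to 0.50). The Slc7a11 body, annotated over 551 kb, held 3838 and 3625 fragments, or 111 and 139 FPM, with 0.32 (0.26 to 0.39). Both lie close to the limit: Nqo1 had 0.27 in cells of 5000 to 10000 in-peak fragments and in thinned cells, and Slc7a11 had 0.29 with fragments shorter than 150 bp and when scaled to all nuclear fragments. With 1 kb around every annotated start of the gene left out, Nqo1 had 0.84 (0.57 to 1.12), on 191 young and 259 aged fragments, and Slc7a11 0.36 (0.29 to 0.42). The other 7 bodies had log2 ratios from -0.12 (-0.24 to -0.003) at Gclc to 0.12 (-0.02 to 0.27) at Srxn1. Without the starts, Srxn1 had 0.38 (0.07 to 0.69), past the limit, on 176 young and 173 aged fragments. Gclc had 0.01 (-0.15 to 0.18) and Gclm 0.14 (-0.06 to 0.35). The share of all genes past the limit without their starts was not computed.

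The peaks called higher in these bodies were picked by their ratio, so leaving them out could only lower the values, and what was left is given as a description. Without its single called intronic peak, the Nqo1 body held 619 and 529 fragments, with a log2 ratio of 0.18 (0.01 to 0.35). The Slc7a11 body without the peaks called higher kept 0.26 (0.19 to 0.33), and its shorter transcript of 78.7 kb had 0.18 (0.09 to 0.26). Outside the combined peaks, fragments within 500 kb of the open start had a log2 ratio of 0.41 at Slc7a11, against -0.06 to 0.15 at the other 8 genes. On its downstream side this window lies within the annotated Slc7a11 body of 551 kb, so its value is not separate from the body ratio. The part of fragments outside peaks in the Slc7a11 body value was not tested.

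**Figure D4:**
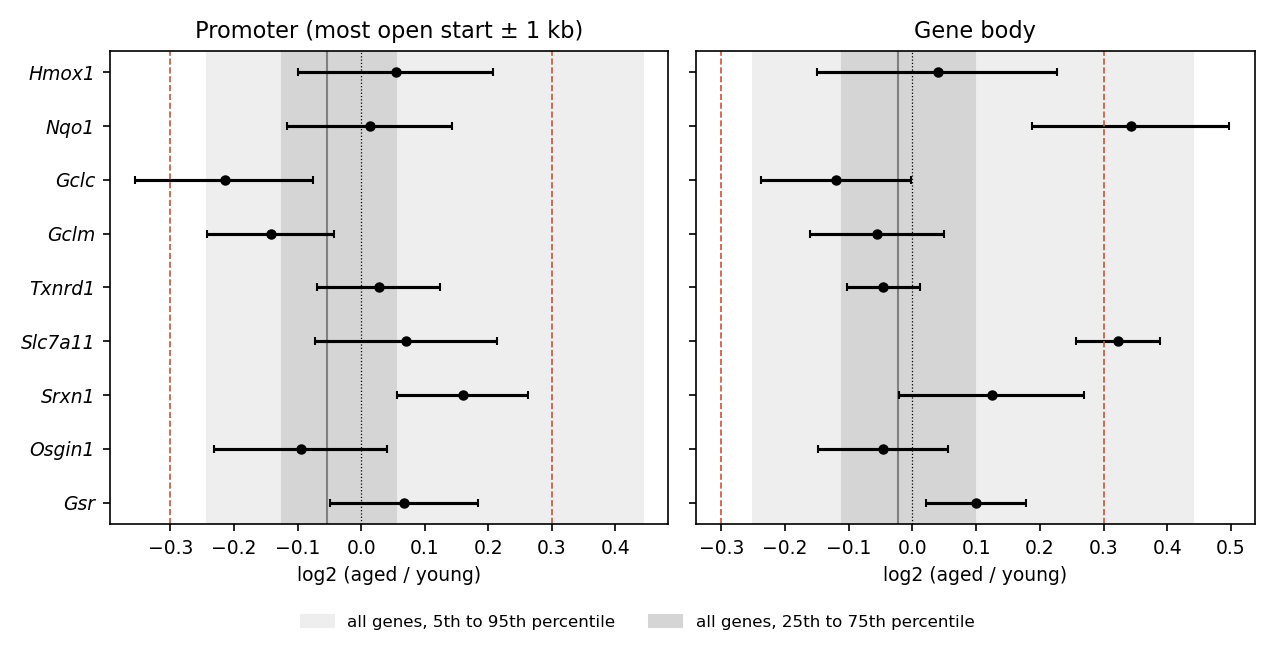
Log2 ratio (aged over young) of the 9 genes at the most open start with 1 kb on either side (left) and over the gene body (right), as points with 95% counting intervals. Shading gives the 5th to 95th and the 25th to 75th percentile of all genes, the grey line their median and the dashed red lines a log2 ratio of 0.3 in either direction; the Nqo1 and Slc7a11 bodies lie past the upper line.

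Peaks at the 9 loci were then taken one by one, within the gene and 50 kb on either side. Of the 177 peaks, 123 reached 100 fragments, and 12 (9.76%) were higher and 7 (5.69%) lower past a log2 ratio of 0.6, against 9.27% and 3.77% of 97233 combined peaks. The share of gains was close to that of all peaks. The share of losses rests on those 7 peaks, some of which reached the minimum largely through the young library. Within the genes and away from the promoter window, 7 of 26 peaks were higher and 2 were lower, against 10% and 4.9% of 43970 such peaks over all genes. Of those 7 peaks, 4 were among the 10 of Slc7a11. Most of the 7 reached the minimum of 100 fragments through the aged library, where they are high, so their share is no result about these genes. Ratios above 0 were found at 11 of 13 Srxn1, 9 of 11 Slc7a11, 5 of 9 Hmox1, 9 of 17 Gsr, 10 of 21 Txnrd1, 4 of 10 Nqo1, 5 of 14 Gclm, 3 of 16 Osgin1 and 2 of 12 Gclc peaks, against 50.3% of all combined peaks.

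The intronic peaks with the highest ratios are printed below over their central 150 bases (GRCm38, 5′ to 3′ on the strand of the gene), with AP-1 letters (TGANTCA) in capitals where present.
Gsr intron, chr8:33673051-33673200: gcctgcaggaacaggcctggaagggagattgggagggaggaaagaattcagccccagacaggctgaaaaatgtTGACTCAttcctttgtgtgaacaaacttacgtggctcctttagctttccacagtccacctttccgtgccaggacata
Slc7a11 intron, chr3:50086821-50086970: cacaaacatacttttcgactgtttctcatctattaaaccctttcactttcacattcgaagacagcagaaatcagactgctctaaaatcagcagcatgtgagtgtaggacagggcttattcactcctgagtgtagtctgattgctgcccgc
Nqo1 intron, chr8:107391246-107391395: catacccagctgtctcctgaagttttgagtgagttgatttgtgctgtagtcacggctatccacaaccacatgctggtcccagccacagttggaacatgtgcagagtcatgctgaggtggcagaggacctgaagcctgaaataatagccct

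The Gsr intron peak (chr8:33672881-33673370, 20.6 kb from the 5′ end) held 16 fragments in young and 115 in aged HSCs, or 0.462 and 4.40 FPM, a log2 ratio of 3.18 (2.49 to 4.11). The fragments came from 16 of 4887 young and 106 of 3405 aged cells, and the peak was found in 1 library alone. It held an AP-1 match, as did 14.5% of all combined peaks, and no CNC match. It reached the minimum of 100 fragments through the aged library. Of the 4 tested peaks inside Gsr and away from the promoter window it was the 1 past 0.6, and the whole body had a log2 ratio of 0.10 (0.02 to 0.18).

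In Slc7a11, the intron peak 357 kb from the 5′ end (chr3:50086611-50087180) held 19 and 88 fragments, or 0.549 and 3.37 FPM, with 2.56 (1.89 to 3.42). It too reached the minimum through the aged library, and it lies beyond the shorter Slc7a11 transcript of 78.7 kb. Introns 67.3 kb, 7.01 kb and 366 kb from the 5′ end held peaks with log2 ratios of 1.05 (0.52 to 1.61), 1.03 (0.53 to 1.56) and 0.85 (0.30 to 1.42). Their fragments came from 48, 52 and 48 young and from 74, 83 and 66 aged cells, so they too reached the minimum largely through the aged library. In thinned cells the peak at 366 kb was seen in 0.564% (0.372 to 0.820) of young and 0.795% (0.520 to 1.16) of aged cells. The peak at 67.3 kb was seen in 0.501% (0.321 to 0.745) and 0.948% (0.645 to 1.34), and at both the intervals overlapped. All 4 peaks were at or below 3.37 FPM in aged HSCs, well under the promoter at 27.4 FPM.

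The Nqo1 intron peak (chr8:107391131-107391510, 11.9 kb from the 5′ end) held 79 and 139 fragments, or 2.28 and 5.32 FPM, with 1.21 (0.81 to 1.64), and came from 76 young and 134 aged cells. Over all kept cells Nqo1 thus had promoter levels within counting error of each other, and a more open intron in the aged library. At Srxn1 the peak 9.36 kb from the 5′ end, beyond the gene, held 62 and 84 fragments, with 0.84 (0.35 to 1.34). In thinned cells it was seen in 0.543% (0.355 to 0.795) of young and 0.948% (0.645 to 1.34) of aged cells, with overlapping intervals.

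Txnrd1 had peaks in both directions. Upstream, a pair of peaks 38.6 and 38 kb from the 5′ end held 284 young and 378 aged and 77 young and 97 aged fragments, with log2 ratios of 0.82 (0.59 to 1.05) and 0.74 (0.29 to 1.19). They lie nearer to the start of Nfyb. In the gene, the peak at the start of Eid3, a gene inside a Txnrd1 intron, held 507 and 246 fragments, or 14.6 and 9.42 FPM, with -0.63 (-0.86 to -0.42). An intron peak 42.3 kb from the 5′ end had -0.89 (-1.50 to -0.34), one at 58.9 kb had 0.63 (0.04 to 1.23), and a peak at 80.0 kb, beyond the gene, had -0.63 (-1.07 to -0.23). The fragments of the peak at 42.3 kb came from 89 young and 37 aged cells, so it reached the minimum largely through the young library. In thinned cells the peak at 58.9 kb was seen in 21 young and 14 aged cells, or 0.439% (0.272 to 0.670) and 0.428% (0.234 to 0.717), too few to tell whether the gain held at equal depth, and before thinning in 0.962% and 1.56%.

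The lowest ratios at Gclm, Gclc and Osgin1 lay in flanks. At Gclm, peaks 55.9 and 53.2 kb from the 5′ end, in introns of Bcar3, held 260 young and 100 aged and 91 young and 42 aged fragments, with -0.96 (-1.32 to -0.63) and -0.69 (-1.27 to -0.17). The latter reached the minimum of 100 fragments largely through the young library. At Gclc, a peak 64.5 kb from the 5′ end held 139 and 59 fragments, with -0.82 (-1.30 to -0.38), and at Osgin1 a peak 17.2 kb upstream held 192 and 85, with -0.76 (-1.16 to -0.39). In thinned cells the Gclc peak was seen in 1.19% (0.903 to 1.54) of young and 0.642% (0.398 to 0.980) of aged cells. The Gclm peak at 53.2 kb was seen in 0.627% (0.423 to 0.893) and 0.336% (0.168 to 0.601), and at both the intervals overlapped. The Gsr flank had 1 peak past 0.6, 15.8 kb upstream in an intron of Ubxn8, with 0.60 (0.21 to 1.0), and 0.856% (0.615 to 1.16) of young and 0.917% (0.620 to 1.31) of aged thinned cells had a fragment there. Hmox1 had no peak past 0.6, and its peaks ran from -0.14 (-0.35 to 0.07) to 0.53 (0.15 to 0.92), the latter 8.70 kb upstream.

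The most covered peaks of each locus outside the promoter window stayed within 0.3. They were at log2 ratios of -0.09 at Hmox1 (15.8 kb), -0.14 at Nqo1 (21.8 kb upstream, at Nob1), -0.03 at Gclc, -0.12 at Gclm (28.9 kb, in Dnttip2), 0.02 at Txnrd1 (19.5 kb upstream), 0.25 at Slc7a11 (61.3 kb), 0.06 at Srxn1 (50.2 kb), -0.24 at Osgin1 (10.2 kb upstream) and -0.23 at Gsr (79.4 kb, at Gtf2e2). The Hmox1 peak lies at the start of Mcm5, and those at Nob1, Dnttip2 and Gtf2e2 also lie at or in other genes.

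**Figure D5:**
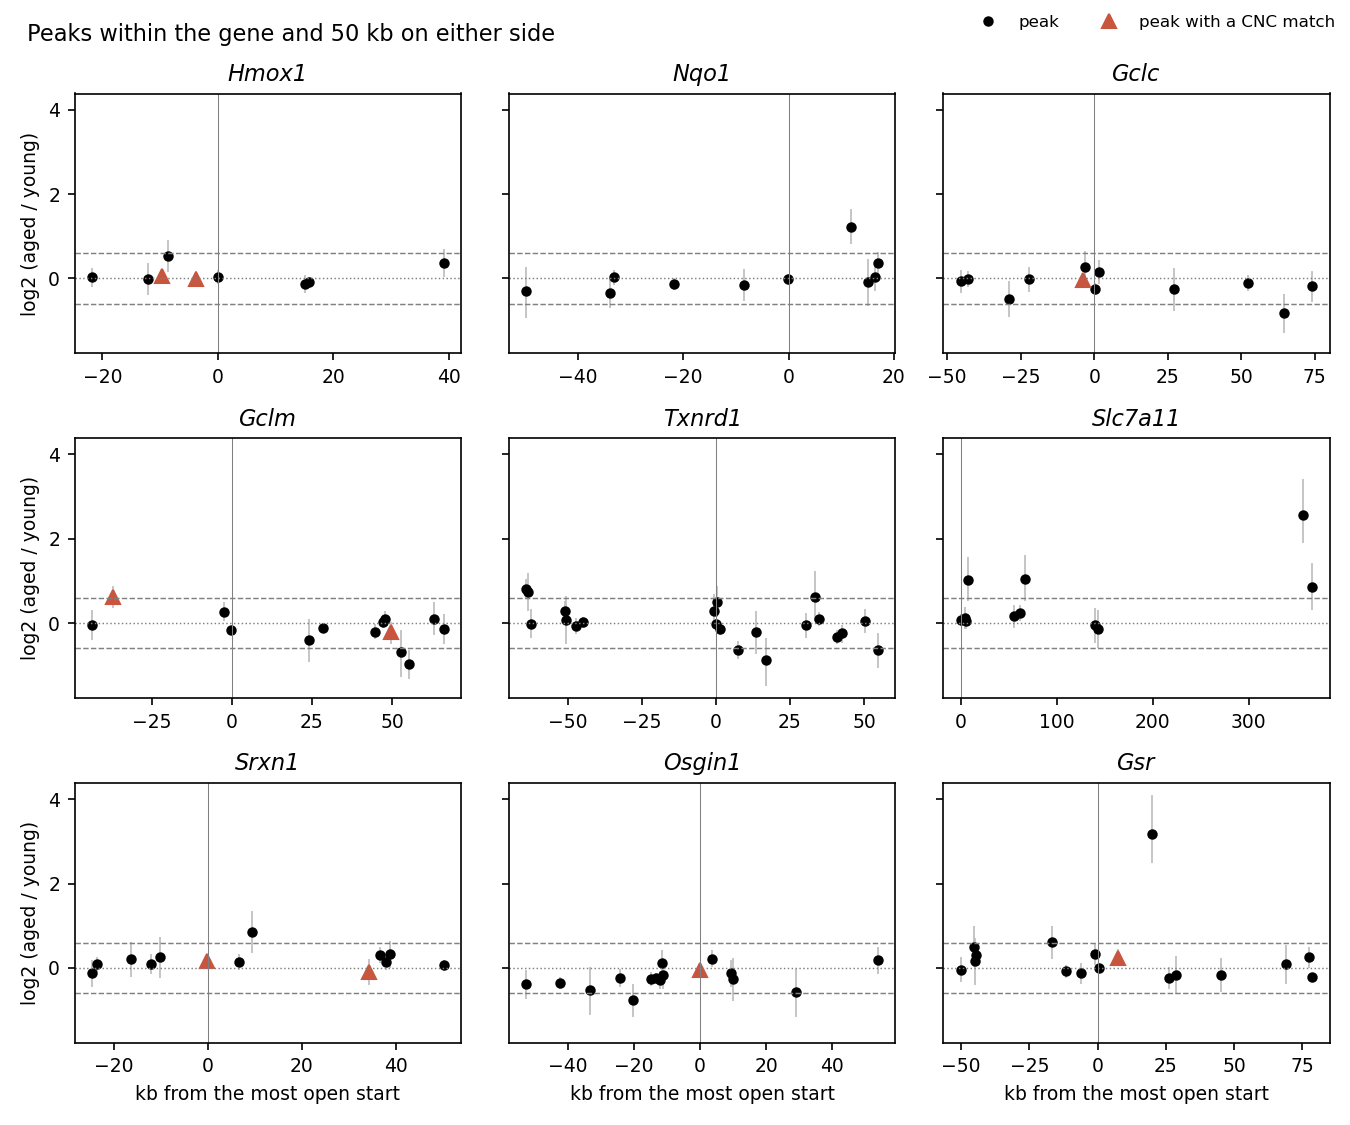
Log2 ratio (aged over young) of the 123 peaks with at least 100 fragments, by distance in kb from the most open start of each of the 9 genes, positive into the gene, with 95% counting intervals; the scale of the x axis differs between panels. Triangles mark the 9 peaks with a CNC match and dashed lines a log2 ratio of 0.6 in either direction; the Gsr and Slc7a11 intron peaks at 3.18 and 2.56 stand highest.

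In bins of 500 bp over the 50 kb flanks, 181 of 1800 bins reached 100 fragments. Past 0.6, 6 (3.31%) were higher and 8 (4.42%) lower, against 6.37% and 2.75% of 125312 flank bins. All but the Slc7a11 bin and the higher Osgin1 bin overlapped a peak named above. The bins higher in aged HSCs were at Gclm (36.8 kb upstream, 0.83), Txnrd1 (38.7 and 38.2 kb upstream, 0.82 and 0.67), Slc7a11 (1.64 kb upstream, 42 young and 67 aged fragments, 1.07), Srxn1 (9.24 kb from the 5′ end, 0.72) and Osgin1 (5.37 kb upstream, 0.78). The Slc7a11 bin reached the minimum of 100 fragments through the aged library. The lower bins were at Gclc (64.2 and 64.7 kb, -0.83 and -0.89), Gclm (53.2, 55.7 and 56.2 kb, -0.75, -0.81 and -1.0), Txnrd1 (79.8 kb, -0.65) and Osgin1 (17.4 and 16.9 kb upstream, -0.78 and -1.11). The Gclc bin at 64.2 kb held 84 young and 35 aged fragments, and the Osgin1 bin at 16.9 kb held 82 and 28. Both reached the minimum largely through the young library, where they are high. With bins shifted by 250 bp, 10 of 194 were higher and 6 lower, so which direction held more bins depends on where the bins fall. The share over all shifted flank bins is not given here, so these counts are no result about the 9 loci.

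Of the 12 regulators of the pathway, 0 had a promoter past 0.3 in either direction, against 9.03% higher and 3.01% lower of all promoters. Nfe2l2 itself held 3294 young and 2510 aged fragments, or 95.2 and 96.1 FPM, with a log2 ratio of 0.01 (-0.06 to 0.09), the highest promoter of this list. Keap1 had -0.13 (-0.27 to 0.01), Bach1 -0.04 (-0.14 to 0.06), and the small Maf genes Mafg, Mafk and Maff 0.02, 0.01 and -0.05. Sqstm1, which encodes p62, a protein that draws Keap1 into autophagy, had -0.27 (-0.38 to -0.16), the lowest of the list.

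Other genes of the pathway were taken from lists by function. Among 68 tested promoters outside the 9 genes, 2 were higher and 2 were lower past 0.3, with a median of -0.04, against 9.03% higher, 3.01% lower and a median of -0.05 over all promoters. Of the 9 other drug and quinone metabolism genes tested, 2 were higher and 0 lower. Aldh3a1, an aldehyde dehydrogenase, held 191 and 344 fragments, or 5.52 and 13.2 FPM, with 1.25 (1.0 to 1.52), and Cbr3, a carbonyl reductase, had 0.31 (0.17 to 0.45). Of 13 other glutathione genes, 0 were higher and 1 was lower, Ggt1, with 90 and 52 fragments and -0.37 (-0.91 to 0.12), and of 14 other thioredoxin and peroxiredoxin genes 0 were higher and 1 was lower, Prdx4, with 83 and 44 fragments and -0.49 (-1.07 to 0.03). At the most open starts of Ggt1 and Prdx4 the log2 ratios were -0.24 and -0.14. None of 10 other heme and iron, 7 NADPH supply or 3 superoxide and peroxide removal genes was past 0.3 in either direction.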

How the data were processed

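Nuclei of sorted HSCs were processed with Chromium Single Cell ATAC kits, and the authors aligned reads to mm10, removed duplicates and called cells with Cell Ranger ATAC. Signac is also named in the submitters' processing notes and made none of the values used here. The deposited fragments and barcode tables hold counts of unique fragments and of read pairs per barcode, with no normalization; whole-number counts were used as deposited. Called barcodes with 3000 to 20000 in-peak fragments were kept. No doublet caller was run, and an upper limit of 15000 was an alternative.

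Peaks were called from cut sites of kept cells in windows of about 150 bp against a local background of 10 kb (Poisson, q of 0.001), joined across 50 bp, kept from 100 bp and merged over the libraries. Fragments with at least one end inside a region were counted, each a single time. Ratios are log2 with a pseudocount of 1 fragment, scaled to in-peak fragments, over regions with at least 100 fragments in both libraries together. Past 0.3 (promoters, bodies) or 0.6 (peaks, bins) a region was counted as higher or lower. Intervals are exact Poisson or binomial at 95%. Annotation was GENCODE M21 and sequence GRCm38. Thinning drew 3000 in-peak fragments per cell with a fixed seed. Ratios and intervals were checked on simulated counts. Tools were Python 3.11.15, numpy 2.4.6, pandas 2.3.3, scipy 1.17.1, numba 0.67.0 and pysam 0.24.0.

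Members and lists were chosen with earlier results of these data known. Named were the 9 genes, the peak with most fragments and the highest and lowest peak of each locus, peaks with a CNC match, up to 3 bins per direction and gene, and list genes past the limit; further peaks past 0.6 were named after their values were seen. The study's limits on nucleosome signal and TSS enrichment were not applied, and those on the share in peaks and the blacklist ratio were an alternative.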

Additional observations from a re-analysis of the deposited data

How the results depend on the processing

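No paired analysis was possible because there is 1 library per age, and leaving a library out was not possible. Medians of the 9 promoter and 9 body ratios stayed between the 2nd and 8th of the 9 ordered main ratios under every alternative. For promoters this range was -0.16 to 0.16, too wide to be a strict check on a median of the same genes. Of 216 single-gene values recomputed, 206 stayed within their counting interval and 10 moved. This too is a loose check. At the most open start Hmox1, Nqo1, Gclc, Slc7a11 and Srxn1 kept the same counts. The wide interval at the Txnrd1 5′ end let its ratio go from 1.17 to 2.49, with fragments shorter than 150 bp, without counting as moved. In windows of 500 bp on either side, 1 promoter (Gsr) was higher past 0.3. With fragments shorter than 150 bp, cells of 5000 to 10000, thinned cells or scaling to all nuclear fragments, 1 body was higher past 0.3, and Nqo1 or Slc7a11 fell below it. Without transcript starts the Nqo1, Srxn1, Gclc and Gclm bodies had 0.84, 0.38, 0.01 and 0.14, and the Osgin1 body had 0.11 in cells of 5000 to 10000. Within 5 kb on either side the Gclc and Gclm windows, which take in further open regions, had -0.07 and -0.03. The Txnrd1 window had -0.11, against 1.17 on few fragments, and in thinned cells the Hmox1 promoter had -0.11. For flank bins, a minimum of 50 gave 19 higher and 22 lower, a minimum of 200 gave 3 and 3, a limit of 1 gave 1 and 2, and a shift of 250 bp gave 10 higher and 6 lower, against 6 and 8. For peaks, a minimum of 50 gave 17 higher and 15 lower of 151, against 12 and 7 of 123. The shares over all flank bins and all peaks under these alternatives are not given here. Unthinned shares of cells were 88.0% (young) and 88.3% (aged). Over all promoters, no minimum gave 4467 higher and 2214 lower against 1356 and 452. The causes were not tested, beyond the fewer or more regions and fragments that minimums, limits and thinning leave by construction. The windows at the Txnrd1 and Osgin1 5′ ends, which miss the open starts, and the intronic peaks with 16 and 19 young fragments held few fragments. Ratios there, and in other regions with few fragments, are imprecise.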
